A study of Mus musculus with 18 samples.

Results

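The gasdermins are a family of mouse genes whose proteins can punch pores in cell membranes, and 7 of them were followed here: Gsdmc, Gsdmc2, Gsdmc3, Gsdmc4, Gsdmd, Gsdme and Gsdma. They were found by their NCBI gene identifiers among the 18349 genes of a table of bulk RNA sequencing of whole mouse colon, and all 7 were present. Expression is given as FPKM (fragments divided by transcript length and by library size), so levels of different genes can be compared per length. The 18 libraries came from male C57BL/6 mice of wild-type genotype, in 5 groups. Control mice (n = 3) drank water. All others first received 2.5% DSS (dextran sulfate sodium, which damages the lining of the colon) for 7 days, then 5 weeks of gavage. The gavage was PBS in the DSS group (n = 3), and Lactobacillus plantarum ZJ316 in the WT group (n = 4), ZJ316-KO in the KO group (n = 4) and ZJ316-COM in the COM group (n = 4). WT, KO and COM therefore name bacterial strains, not mouse genotypes, and what KO and COM stand for is not given in the sources used here. Neither the age of the mice nor whether each library is 1 animal is stated, and the p-values therefore rest on the spread among libraries, which may be technical.

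A gasdermin protein holds a pore-forming amino-terminal part that is kept in check by its carboxy-terminal part until a protease cuts between them. Gsdmd is cut by the inflammatory caspases 1 and 11 downstream of inflammasomes, the protein platforms that sense microbial products, and the pores release interleukin 1 beta and interleukin 18 in the lytic death called pyroptosis. Gsdma is best known from skin, and the Gsdmc genes are expressed in epithelium, in mouse intestine chiefly as Gsdmc2, Gsdmc3 and Gsdmc4, where type 2 cytokines are known to induce them.

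The 4 Gsdmc genes lie side by side on chromosome 15 (assembly GRCm38.p6): Gsdmc (gene ID 83492) at 63775971 to 63808739, Gsdmc2 (331063) at 63824328 to 63845193, Gsdmc3 (270328) at 63857605 to 63878579 and Gsdmc4 (74548) at 63891140 to 63912319. Gsdmd (69146) is on the same chromosome at 75862144 to 75867408, Gsdme (54722) on chromosome 6 at 50207401 to 50263857 and Gsdma (57911) on chromosome 11 at 98664337 to 98677708. Copies this alike can trade sequencing reads, so their coding sequences were compared first, from GENCODE M21 transcripts. Gsdmc2 and Gsdmc3 shared 97.09% of 1443 aligned coding bases, Gsdmc2 and Gsdmc4 93.53% of 1437, and Gsdmc3 and Gsdmc4 93.46% of 1437. Gsdmc matched these 3 at 85.87% to 87.1%. In the earlier part of the alignment, up to its midpoint and on the side of the pore-forming part, Gsdmc2 and Gsdmc3 were 99.3% identical, and in the later part 94.92%. The 90 coding bases in which Gsdmc2, Gsdmc3 and Gsdmc4 differed least are shown to make plain how little can tell them apart. Capitals mark columns where any of the 4 genes differs. The stretch begins at coding base 133 of Gsdmc and 130 of the other 3, and Gsdmc2, Gsdmc3 and Gsdmc4 have no difference in it.
Gsdmc: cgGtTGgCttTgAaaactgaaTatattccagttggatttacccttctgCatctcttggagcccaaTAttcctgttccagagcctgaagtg
Gsdmc2: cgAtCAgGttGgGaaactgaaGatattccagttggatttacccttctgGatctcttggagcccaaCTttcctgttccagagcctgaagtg
Gsdmc3: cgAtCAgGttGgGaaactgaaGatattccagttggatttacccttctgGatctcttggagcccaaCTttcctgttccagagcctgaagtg
Gsdmc4: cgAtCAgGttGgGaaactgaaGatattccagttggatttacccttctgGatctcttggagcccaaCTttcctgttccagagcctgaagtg

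The 90 bases in which they differed most follow, beginning at coding base 787 of Gsdmc, 778 of Gsdmc2 and Gsdmc3 and 784 of Gsdmc4. Here 22 columns differ among Gsdmc2, Gsdmc3 and Gsdmc4.
Gsdmc: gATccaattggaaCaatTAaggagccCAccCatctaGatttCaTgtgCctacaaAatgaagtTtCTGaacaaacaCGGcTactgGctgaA
Gsdmc2: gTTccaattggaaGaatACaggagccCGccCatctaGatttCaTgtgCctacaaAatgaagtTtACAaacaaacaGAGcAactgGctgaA
Gsdmc3: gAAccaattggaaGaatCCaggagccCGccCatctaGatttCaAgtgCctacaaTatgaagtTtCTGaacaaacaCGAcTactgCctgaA
Gsdmc4: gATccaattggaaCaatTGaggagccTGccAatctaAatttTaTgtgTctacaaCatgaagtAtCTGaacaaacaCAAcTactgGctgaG

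Of the 1344 stretches of 100 bases in each coding sequence, 376 in Gsdmc2, 418 in Gsdmc3 and 371 in Gsdmc4 occur exactly in a transcript of another gene, in each case of the Gsdmc cluster. With 50 bases the shares were 47.7%, 46.6% and 50.6%. None of the 1365 stretches of 100 bases in Gsdmd or the 1440 in Gsdme did so, and in Gsdma 48 of 1242 were shared with Gsdma2. The sources used here give neither the read length nor how reads that match several genes were treated. Single values of Gsdmc2, Gsdmc3 and Gsdmc4 are therefore less certain than their sum, whereas Gsdmd and Gsdme had no such overlap.

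Promoter sequences of 2 of the 7 genes, Gsdmc3 and Gsdme, were matched in RefSeq (GRCm38.p6). They are shown as the 250 bases before the start that RefSeq's table gives, because they differ in CG content. Both starts lie inside the gene spans given above, that of Gsdme well inside, so these are not the bases before the outermost starts. Gsdmc3 (chr15:63878559-63878808, minus strand) holds 1 CG dinucleotide and Gsdme (chr6:50261770-50262019, minus strand) 15, against a median of 6 over 32851 promoters. Capitals mark a TATATAA match in Gsdmc3 that begins 29 bases before the start. TATATAA, searched on both strands, occurs in 3.04% of these promoters, and Gsdme has no match to it. Neither sequence holds TATAAA (12.37% of promoters), the STAT6-type palindrome with its 4-base spacer (5.85%), TTCNNNGAA (7.02%) or TTTATGG (2.43%).
Gsdmc3: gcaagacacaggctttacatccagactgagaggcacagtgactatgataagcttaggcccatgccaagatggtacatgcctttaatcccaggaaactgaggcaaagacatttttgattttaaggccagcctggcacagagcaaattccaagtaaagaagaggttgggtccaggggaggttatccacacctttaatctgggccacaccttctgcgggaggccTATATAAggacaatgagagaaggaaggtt
Gsdme: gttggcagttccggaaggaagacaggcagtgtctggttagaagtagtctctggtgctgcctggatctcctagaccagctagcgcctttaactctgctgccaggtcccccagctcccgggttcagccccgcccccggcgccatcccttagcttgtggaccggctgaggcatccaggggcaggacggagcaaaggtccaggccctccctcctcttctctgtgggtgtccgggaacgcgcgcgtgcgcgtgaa

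Libraries had FPKM totals of 517933 to 558590 and 16446 to 16859 genes above 0, and their number of reads is unknown. The 7 general epithelial markers, which show epithelium but cannot tell colon from other epithelial tissue, had a mean log2(FPKM + 1) of 9.19 to 9.65 in every library. Some libraries stood apart from their group in markers of other tissues or gut positions. The 12 pancreatic acinar genes were high in DSS 1, DSS 3 and KO 3 (means of 10.2, 7.85 and 8.72, against at most 1.21 elsewhere). The 13 squamous genes were high in DSS 2, WT 2, WT 4, KO 3 and COM 3, and 10 Hox genes of the distal gut were low in Control 3, DSS 3 and KO 2 (1.36, 2.45 and 2.13, against at least 3.06 elsewhere). Bulk values cannot tell apart fewer cells of a type and less RNA per cell.

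Gsdmc4 was the most abundant gasdermin in every library but Control 3, where Gsdmc2 was (the plot of Gsdmc2, Gsdmc3 and Gsdmc4 FPKM by group). Gsdmc4 ranked between position 50 and position 282 of all genes within a library, and Gsdmc2, Gsdmc3 and Gsdmc4 together made up 0.134% to 0.427% of a library's FPKM. Over all 18 libraries the mean was 754 FPKM for Gsdmc4, 426 for Gsdmc2, 121 for Gsdmc3 and 89.0 for Gsdmd, which lay above Gsdmc3 in WT 1, WT 4, COM 2, COM 3 and COM 4. Gsdme, Gsdma and Gsdmc had means of 3.18, 1.15 and 0.43 FPKM. The colon thus carried RNA mainly of the Gsdmc2 to Gsdmc4 genes and of Gsdmd.

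**Figure D1:**
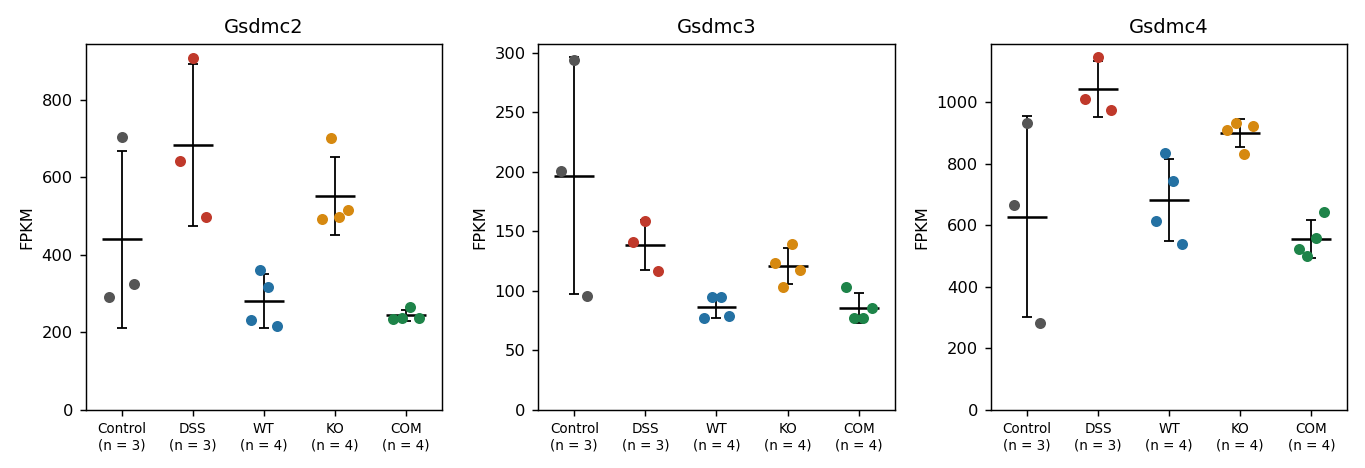
FPKM of Gsdmc2, Gsdmc3 and Gsdmc4 (vertical axes, from 0) by group; points are libraries, horizontal lines group means and bars 1 SD. All DSS and KO libraries of Gsdmc2 and of Gsdmc3 lie above all WT and COM libraries, and the 3 Control libraries are spread widely. For Gsdmc3, KO 2 (103.35 FPKM) and COM 1 (102.98 FPKM) are almost level. The share of all genes so separated was not counted.

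Gsdmc2 lay at 641, 909 and 498 FPKM in DSS 1 to DSS 3, and at 491, 702, 497 and 516 FPKM in KO 1 to KO 4. It lay at 232, 362, 316 and 215 FPKM in WT 1 to WT 4, and at 234, 236, 265 and 238 FPKM in COM 1 to COM 4. The 3 Control libraries lay at 290.1, 703 and 325 FPKM, so Control 2 lay among the DSS and KO libraries and the other two among those of WT. In order of group means the DSS group had 682 ± 209 FPKM (SD, n = 3), KO 551 ± 101 (n = 4), Control 439 ± 229 (n = 3), WT 281 ± 69.3 (n = 4) and COM 243 ± 14.6 (n = 4). DSS overlapped KO and Control, KO overlapped Control, Control overlapped WT, and WT overlapped COM. No library of WT or COM reached the lowest DSS or KO library. How many of all genes keep these groups apart in this way was not counted. The same holds for the other Gsdmc levels, sums and ratios below.

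The plain question behind the strain groups is how DSS-treated mice given ZJ316 or its derivatives differ from those given PBS, and how the strains differ from each other. On the scale of log2(FPKM + 1), Gsdmc2 differed by -1.26 ± 0.27 (SE) in WT against DSS (unadjusted p = 2.83e-04, adjusted p = 0.9996) and by -1.44 ± 0.27 in COM against DSS (unadjusted p = 7.67e-05, adjusted p = 0.0925). The difference of KO from DSS was -0.28 ± 0.27, with a 95% interval from -0.86 to 0.30, and it was -0.48 without DSS 3 and -0.051 without DSS 2. Gsdmc2 was higher in KO than in WT by 0.98 ± 0.25 (unadjusted p = 0.00128, adjusted p = 0.0647), and COM differed from KO by -1.16 ± 0.25 (unadjusted p = 2.98e-04, adjusted p = 0.158). COM and WT differed by -0.18 ± 0.25, with an interval from -0.71 to 0.36, and by -0.047 without WT 2 and -0.30 without WT 4. None of these values passed limma's threshold of 0.05 after adjustment over 13263 genes.

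Gsdmc4 lay at 1010.4, 1147 and 974 FPKM in the DSS group, at 909.6, 933, 832 and 922 FPKM in KO, at 613, 837, 743 and 538 FPKM in WT and at 523, 499.8, 560.1 and 642 FPKM in COM. Control libraries lay at 667, 933 and 284 FPKM, the last being Control 3, the library lowest in Hox genes. All DSS libraries lay above all other DSS-treated libraries, and COM lay below KO without overlap, whereas WT 2 lay above KO 3. The means were 1043.8 ± 91.2 FPKM in DSS, 899 ± 45.7 in KO, 683 ± 133 in WT, 628 ± 326 in Control and 556 ± 62.4 in COM. Gsdmc4 differed by -0.63 ± 0.27 in WT against DSS (unadjusted p = 0.0353), by -0.91 ± 0.27 in COM against DSS (unadjusted p = 0.00433) and by -0.21 ± 0.27 in KO against DSS. It differed by 0.42 ± 0.25 in KO against WT, by -0.70 ± 0.25 in COM against KO and by -0.28 ± 0.25 in COM against WT. The adjusted p of these 6 values was 0.262 to 0.9996.

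Gsdmc3 lay at 141, 158 and 117 FPKM in DSS and at 123, 103, 139 and 118 FPKM in KO, against 77.3, 95.1, 94.9 and 79.2 FPKM in WT and 103, 77.1, 76.85 and 85.1 FPKM in COM. The lowest KO library (KO 2, 103.35 FPKM) and the highest COM library (COM 1, 102.98 FPKM) were almost level. Gsdmc3 differed by -0.67 ± 0.26 in WT against DSS and by -0.69 ± 0.26 in COM against DSS, by 0.47 ± 0.24 in KO against WT and by -0.50 ± 0.24 in COM against KO, none past the adjusted threshold. Its order of DSS and KO above WT and COM was that of Gsdmc2.

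The background of calls between groups of DSS-treated mice was close to 0 for all genes. In WT against DSS limma called 0 of 13263 genes (0%) and 0 of the 6 gasdermins tested, of which 3 had an unadjusted p under 0.05. In COM against DSS it called 0.0151% of genes and 0 gasdermins, with 3 under an unadjusted 0.05, and in KO against DSS 0.166% (0.0980% higher, 0.0679% lower) and 0, with 0 under it. In KO against WT it called 0.829% (0.324% higher, 0.505% lower) and 0 gasdermins (1 under an unadjusted 0.05), in COM against KO 0.0302% (0.0226% higher, 0.00754% lower) and 0 (2), and in COM against WT 0.00754% and 0 (0). Fitted on the 2 groups compared alone, KO against WT gave calls for Gsdmc2 (adjusted p = 0.0348) and Gsdmc3 (adjusted p = 0.0470) in limma, among 467 of 13263 genes called in that fit. COM against DSS gave one for Gsdmc4 (adjusted p = 0.0437), among 10 genes called. The comparisons with DSS share its 3 libraries, so their values are set side by side and not counted as separate evidence.

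**Figure D2:**
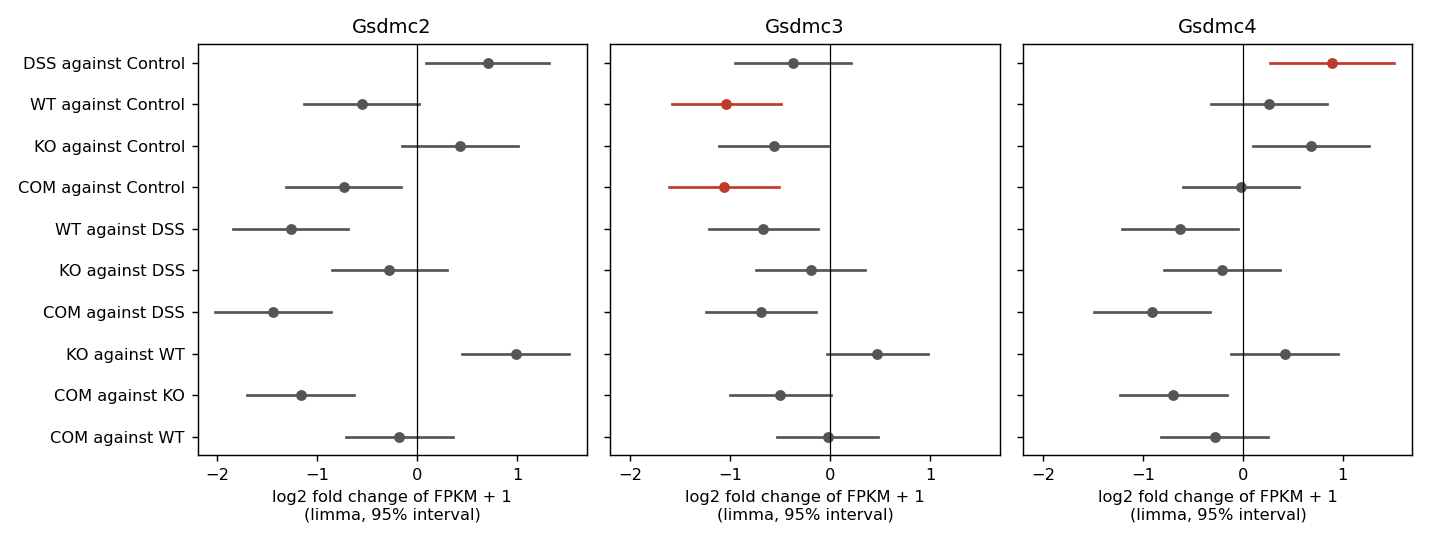
Log2 fold change of FPKM + 1 (horizontal axes) of Gsdmc2, Gsdmc3 and Gsdmc4 in 10 comparisons (vertical axis); points are limma estimates, lines 95% intervals, and red marks an adjusted p under 0.05. The red values are Gsdmc3 in WT and in COM against Control and Gsdmc4 in DSS against Control, and in all 3 genes WT and COM stand below DSS.

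The 7 general epithelial genes summed to 6659 to 7973 FPKM in Control, 5911 to 6502 in DSS, 6535 to 7762 in WT, 7246 to 8629 in KO and 6740 to 7429 in COM. The 7 goblet cell genes summed to 7807 to 10580 FPKM in Control, 10430 to 14270 in DSS, 10550 to 12330 in WT, 10070 to 13630 in KO and 9975 to 10970 in COM. The goblet sums of the DSS-treated groups all overlapped, and the epithelial sums of DSS lay below those of WT, KO and COM. The 10 colonocyte genes summed to 9088 to 23710 FPKM in Control, 5027 to 6043 in DSS, 5241 to 6454 in WT, 6685 to 9321 in KO and 6541 to 10720 in COM. Colonocyte sums of DSS and WT thus lay below those of KO and COM. No gene of these 3 lists was at 0 in every library, and their part in the Gsdmc values was not tested. With all acinar-rich libraries left out, Gsdmc2 stood at -1.72 in WT against DSS, which then rests on 1 DSS library, and at 1.03 in KO against WT.

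Against Control, the Gsdmc genes did not move as one. Gsdmc4 was called higher in DSS, by 0.89 ± 0.29 (adjusted p = 0.0472), beside 16.9% of all genes called, 11.6% higher and 5.31% lower. It was the single gasdermin called in that comparison. Gsdmc2 stood at 0.71 ± 0.29 (adjusted p = 0.103) and Gsdmc3 at -0.37 ± 0.27 (adjusted p = 0.374). The call of Gsdmc4 depended on single libraries: its value was 0.40 without Control 3 (adjusted p = 0.142), and it also lost the call without DSS 1, DSS 2 or DSS 3 (adjusted p = 0.0923, 0.131 and 0.0873). Without Control 3 the call in limma passed to Gsdmc3, at -0.82 (adjusted p = 0.0114), and Gsdmc3 stood at -0.0091 without Control 2. Gsdmc2 was called without Control 2, at 1.10 (adjusted p = 0.0101), and stood at 0.47 without Control 1. The groups overlap in none of their Gsdmc4 libraries, since the lowest DSS library (974 FPKM) lay above the highest Control library (933 FPKM).

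Gsdmc3 was lower than Control in the WT and COM groups. Control libraries held 200.4, 294 and 95.5 FPKM, and the fall was 1.04 ± 0.26 in WT (value -1.04, adjusted p = 0.0107) and 1.06 ± 0.26 in COM (value -1.06, adjusted p = 0.0225). These were the single calls among 6 tested gasdermins in each comparison, beside 23.1% of all genes called in WT (14.7% higher, 8.35% lower) and 7.60% in COM (5.26% higher, 2.34% lower). In KO against Control 0 gasdermins passed in limma, 2 had an unadjusted p under 0.05, and 5.14% of all genes were called (3.69% higher, 1.46% lower). Gsdmc3 stood at -0.56 ± 0.26 there (adjusted p = 0.221) and Gsdmc4 at 0.68 ± 0.27 (adjusted p = 0.166). Without Control 3 Gsdmc3 was called lower in KO (-1.01, adjusted p = 0.00526) and Gsdmc4 stood at 0.19, and without Control 2 Gsdmc4 was called higher (1.04, adjusted p = 0.0329) and Gsdmc3 stood at -0.20. Gsdmc2 stood at -0.56 ± 0.27 in WT, 0.43 ± 0.27 in KO and -0.73 ± 0.27 in COM against Control (adjusted p = 0.148, 0.390 and 0.108). Without Control 1 it was called lower in WT (-0.80, adjusted p = 0.0446) and in COM (-0.97, adjusted p = 0.0324). Gsdmc3 in WT stood at -0.68 without Control 2 (adjusted p = 0.0486), and in COM at -0.70 (adjusted p = 0.0884), where its call was lost. Of 10 colonocyte markers tested, 2 were called lower in WT (median log2 change -0.60) and 1 in COM (median -0.32). In DSS and in KO against Control 1 was called lower in each, with medians of -0.54 and -0.04. The part of these markers in the Gsdmc3 values was not tested. All 4 comparisons use the same 3 Control libraries.

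With the 4 DSS-treated groups weighted equally against Control, Gsdmc3 was called lower by 0.76 ± 0.21 (value -0.76, adjusted p = 0.0209), beside 21.0% of genes called, 13.8% higher and 7.16% lower. Control 3, at 95.5 FPKM, lay inside the range of the 15 DSS-treated libraries, 76.85 to 158 FPKM with a median of 103, and Control 1 and Control 2 lay above all of them. The value was -0.40 without Control 2 (adjusted p = 0.175) and -0.67 without Control 1 (adjusted p = 0.0600), so the call rests on those libraries. Gsdmc4 stood at 0.45 ± 0.23 in the same comparison (adjusted p = 0.165), at -0.038 without Control 3 and at 0.82 without Control 2 (adjusted p = 0.0210).

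The ratio between these neighbours separated all Control from all DSS-treated libraries, which no single level of the 3 genes did (the plot of ratios by group). Gsdmc3 per Gsdmc4 was 0.300 to 0.337 in the 3 Control libraries, including Control 3, and 0.111 to 0.197 in all 15 DSS-treated libraries. The group means were 0.317 ± 0.0181 in Control, 0.132 ± 0.0109 in DSS, 0.129 ± 0.0138 in WT, 0.135 ± 0.0238 in KO and 0.155 ± 0.0293 in COM. This ratio was chosen after the values were seen and is given without a test. Gsdmc2 per Gsdmc4 followed the strain groups instead. It was 0.511 to 0.792 in DSS and 0.540 to 0.752 in KO, 0.379 to 0.432 in WT and 0.370 to 0.473 in COM, and 0.435 to 1.15 in Control. How reads shared between the copies were assigned could move both ratios, and its part was not tested.

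**Figure D3:**
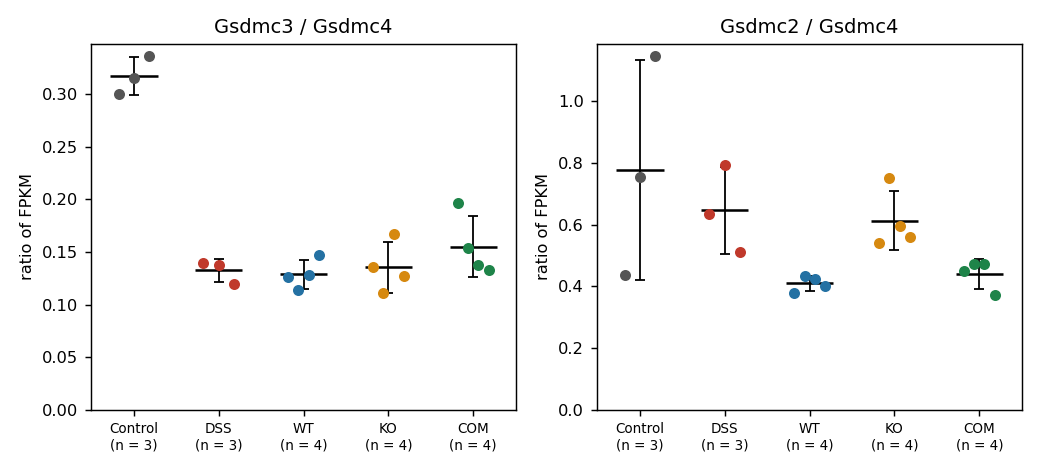
Ratio of Gsdmc3 to Gsdmc4 FPKM (left) and of Gsdmc2 to Gsdmc4 FPKM (right) by group, axes from 0; points are libraries, lines means and bars 1 SD. On the left the 3 Control libraries (0.300 to 0.337) lie above every other library, and on the right DSS and KO lie above WT and COM.

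The summed FPKM of Gsdmc2, Gsdmc3 and Gsdmc4, which depends less on how reads are split among them, was 1865 ± 319 in DSS, 1572 ± 117 in KO, 1264 ± 620 in Control, 1051 ± 211 in WT and 885 ± 64.7 in COM. The lowest DSS library (1589 FPKM) and the lowest KO library (1468 FPKM) lay above the highest WT (1294 FPKM) and COM (965 FPKM) libraries. With Gsdmc added to the sum, the log2 difference was -0.84 ± 0.24 in WT against DSS, -1.06 ± 0.24 in COM against DSS, -0.24 ± 0.24 in KO against DSS and 0.60 ± 0.22 in KO against WT.

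Gsdmd, the main executioner of pyroptosis, lay within 62.1 to 104 FPKM in every library (the plot of Gsdmd, Gsdme, Gsdma and Gsdmc FPKM). It lay at 104, 95.8 and 62.1 FPKM in Control 1 to Control 3, at 75.1, 94.8 and 74.1 FPKM in DSS 1 to DSS 3, and between 79.4 and 100.2 FPKM in all 12 libraries of the strain groups. Control 3 was the lowest of all libraries, and the acinar-rich DSS 1 and DSS 3 were next. Group means were 87.2 ± 22.0 FPKM in Control, 81.3 ± 11.7 in DSS, 94.8 ± 3.71 in WT, 88.8 ± 3.89 in KO and 90.3 ± 8.47 in COM. The DSS-treated groups differed from Control by 0.05 ± 0.11, with a 95% interval from -0.19 to 0.29, and by -0.17 without Control 3.

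Gsdme, whose cleaved protein also forms pores, lay at 1.75, 2.31 and 10.8 FPKM in Control and at 1.86 to 4.48 FPKM in all 15 DSS-treated libraries. Control 3 was thus more than the highest of the others, while Control 1 and Control 2 were within or just below their range. The DSS-treated groups differed from Control by -0.35 ± 0.31 (interval from -1.01 to 0.30), and by 0.30 without Control 3. Across the 18 libraries Gsdmd and Gsdme ran in opposite directions (Pearson's r of -0.816 on log2 values, -0.615 without Control 3). For deviations from group means, with Control 3 included, r was -0.913. These values describe libraries of 5 groups and unknown depth.

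**Figure D4:**
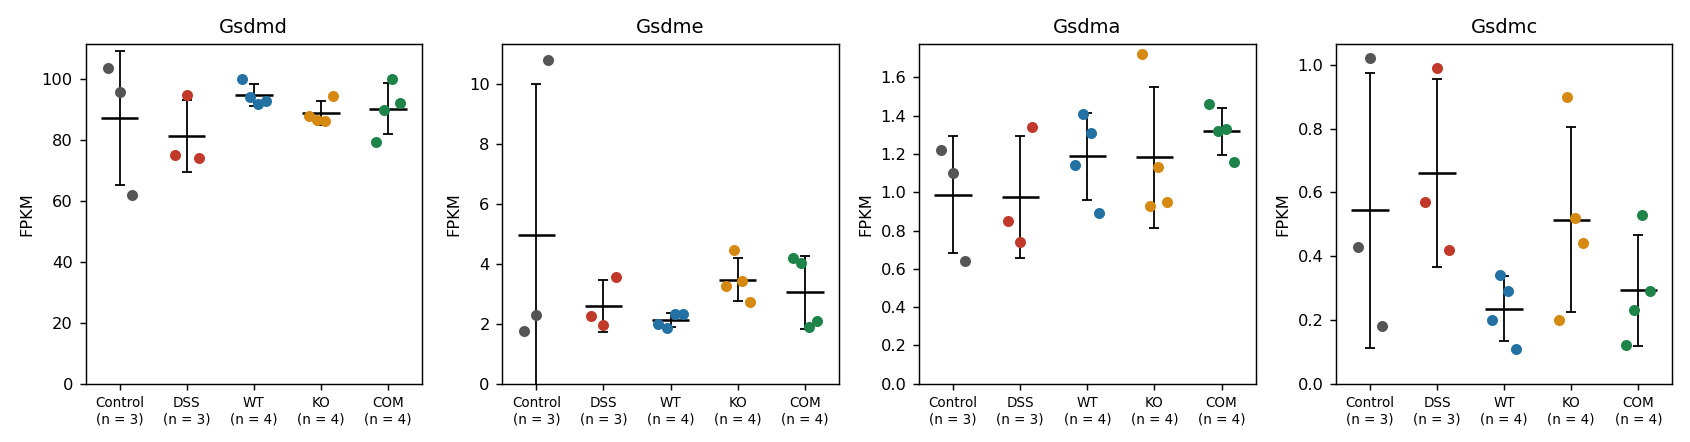
FPKM of Gsdmd, Gsdme, Gsdma and Gsdmc (vertical axes, from 0, each on its own scale) by group; points are libraries, lines means and bars 1 SD, drawn down to 0 at most. Gsdmd lies between 62.1 and 104 FPKM in all libraries, and Gsdme is high in Control 3 alone, at 10.8 FPKM.

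Gsdma and Gsdmc were near the limit of the values. Gsdma reached 1 FPKM in 12 of 18 libraries, with a range of 0.64 to 1.72 FPKM and a difference of 0.13 ± 0.12 between DSS-treated groups and Control (interval from -0.13 to 0.38). It was not high in the squamous-rich libraries, which held 0.74 to 1.41 FPKM. Gsdmc reached 1 FPKM in 1 library, Control 2 (1.02 FPKM), with a range of 0.11 to 1.02 FPKM, and was not tested. Its values ran with those of Gsdmc2 (r = 0.818 over 18 libraries), a gene with which it shares coding stretches. Of the other family members, Gsdma2 and Pjvk were at most 0.09 and 0.28 FPKM. So 6 of the 7 genes passed the filter of 1 FPKM in at least 3 libraries.

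The genes that act before and after the gasdermins were also read from lists. Of 11 inflammasome sensor genes 10 were tested, and in DSS-treated groups against Control 4 rose and 1 fell, beside 21.0% of all genes called. The median log2 change of the list was 0.08, against 0.04 over all tested genes. Naip2, which binds bacterial secretion proteins for the Nlrc4 inflammasome, rose by 0.58 ± 0.11 (adjusted p = 0.00222). Mefv, the pyrin gene, rose by 0.45 ± 0.11 and Nek7, a partner of Nlrp3, by 0.37 ± 0.07. Nlrp6, a sensor of the intestinal epithelium, fell by 0.47 ± 0.09 (adjusted p = 0.00295). Its level was 97.4 ± 16.0 FPKM in Control, 72.7 ± 1.65 in DSS, 72.4 ± 5.04 in WT, 59.4 ± 7.18 in KO and 75.8 ± 7.25 in COM. The fourth gene that rose was Nlrp1b. Nlrp3 itself was at most 0.50 FPKM and was not tested.

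Between strains, Nlrc4 was lower in KO than in WT by 0.33 ± 0.07 (value -0.33, adjusted p = 0.0480), and it was the 1 sensor gene called there, beside 0.829% of all genes. It lay at 17.5 ± 2.00 FPKM in WT and 13.6 ± 0.76 FPKM in KO. The call was lost without WT 3, where limma called 0 genes of any kind in this comparison, and likewise without the acinar-rich or the squamous-rich libraries. The main fit called 110 genes here. Without WT 1, WT 2, KO 2, KO 3 or KO 4 it was 14, 2, 8, 7 or 10, and 10 with the replicate number as a block. Without WT 4 or KO 1 it was 159 or 153. Whether Nlrc4 was among the genes called in these fits is not given here. Macrophage markers stood lower in KO as well. Of 10 tested 0 were called and 10 had an unadjusted p under 0.05, with a median of -0.67 and sums of 283 to 326 FPKM in WT against 145 to 250.4 FPKM in KO. Their part in the Nlrc4 value was not tested.

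Of 6 adaptor and caspase genes 0 passed in limma in DSS-treated groups against Control, beside 21.0% of all genes. An unadjusted p under 0.05 was found for 2 of them. In a list this short a count of 0 says little. Casp1, which cuts Gsdmd, stood at -0.17 ± 0.08, the adaptor Pycard at 0.01 ± 0.07 and Casp4, the mouse caspase 11 gene, at 0.28 ± 0.13. Casp4 rose in WT against Control, by 0.61 ± 0.15 (adjusted p = 0.0109). Of 5 granule protease genes, some of which cut gasdermins in immune killing or in neutrophils, Gzma and Gzmb were tested and did not pass, and Elane, Ctsg and Prtn3 were at most 0.35 FPKM.

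Among 5 cytokine and alarmin genes that leave cells through or beside gasdermin pores, 4 were tested. Of these, Il1b rose, beside 13.8% of all genes called higher. It lay at 0.52 to 2.19 FPKM in the 3 Control libraries and at 2.81 to 8.91 FPKM in the DSS-treated ones without overlap, a log2 difference of 1.59 ± 0.27 (adjusted p = 0.00137). Il18 stood at 0.68 ± 0.34, Il33 at 0.46 ± 0.24 and Hmgb1 at 0.03 ± 0.06, and these 3 were not called. Il18 was spread widely in Control, at 33.8 to 169 FPKM, and overlapped the DSS-treated libraries, at 89.5 to 202 FPKM with a median of 155. Macrophage markers moved with Il1b, and all 10 of 10 were called higher in DSS-treated groups against Control, beside the same 13.8%. Their summed levels were 59.55 to 176.5 FPKM in Control and 145 to 356 FPKM in the DSS-treated groups. Their part in the Il1b value was not tested. Of 7 genes of membrane rupture and repair, among them Ninj1, which bursts the membrane after pores form, 6 were tested and 0 passed (0 with an unadjusted p under 0.05). Of 4 regulators, including Irf2, which drives Gsdmd transcription, 0 passed and 1, Zdhhc5, had an unadjusted p under 0.05. In lists this short, counts of 0 say little beside the 21.0% of all genes called (13.8% higher, 7.16% lower).

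Genes of type 2 immunity were listed because their cytokines are known to induce Gsdmc genes. Of 13 genes 7 were tested, and in DSS-treated groups against Control 2 rose, near the 21.0% of all genes called (13.8% higher). They were the receptor genes Il13ra1 (0.51 ± 0.07, adjusted p = 3.33e-04) and Il4ra (0.46 ± 0.15, adjusted p = 0.0432). Il13ra1 was called higher than Control in each of the DSS, WT, KO and COM groups. Stat6, the transcription factor behind these receptors, stood at -0.04 ± 0.08. The cytokine genes Il5, Il13, Il25 and Tslp were below 1 FPKM in every library. Il4, also among the 13, was not found by symbol among the deposited genes. Retnlb, a goblet cell gene that type 2 cytokines induce, lay at 77.7 to 282 FPKM in DSS and 124 to 847 FPKM in KO, against 4.12 to 50.0 FPKM in WT and 7.71 to 112 FPKM in COM, and at 0.96 to 398 FPKM in Control. Retnlb did not pass in any comparison. Il13ra1 went the other way, with means of 48.9 FPKM in DSS and 49.2 in KO, against 55.8 in WT and 54.5 in COM. In KO against WT 0 of the 7 tested genes were called, beside 0.829% of all genes, and 4 had an unadjusted p under 0.05. The median log2 change of the list was 0.03 there, with Retnlb higher in KO and Il13ra1 lower. Whether type 2 genes bear on the Gsdmc values was not tested.

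Other genes shared the pattern of the Gsdmc genes over the 18 libraries, by Pearson's correlation of log2(FPKM + 1), which group differences and depth can raise. Nearest to Gsdmc2 was Pla2g4c, a cytosolic phospholipase A2 gene (r = 0.901, and 0.663 for deviations from group means), with 25.3 ± 13.4 FPKM in DSS, 13.9 ± 8.62 in KO, 1.75 ± 2.21 in WT, 0.77 ± 0.21 in COM and 14.0 ± 20.4 in Control (the plot of Gsdmc genes against their nearest genes). Then came Chpf (0.761), the antimicrobial ribonuclease gene Ang4 (0.758), Tmed3 (0.749) and Armc5 (0.733). Nearest to Gsdmc4 were Cmtm7 (0.893), Glod4 (0.869), the pentraxin gene Mptx1 (0.851), Osgep (0.832) and Stx6 (0.822), at 0.697 to 0.809 without Control 3. Nearest to Gsdmc3 were BC016579 (0.800), Tada2a (0.799), Tmem160 (0.783), Tspan33 (0.774) and the colonocyte carbonic anhydrase gene Car4 (0.760). The 3 Gsdmc genes had no gene in common among these.

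**Figure D5:**
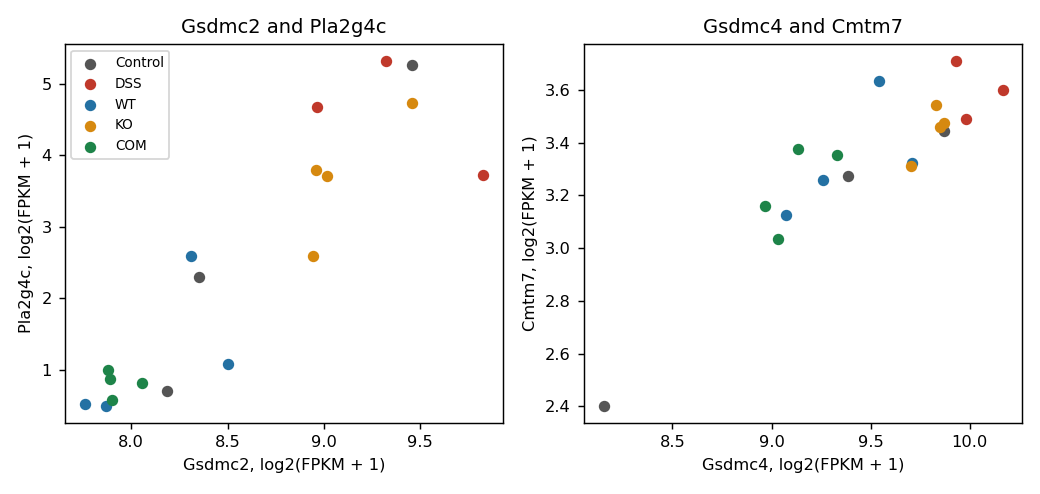
Gsdmc2 against Pla2g4c (left) and Gsdmc4 against Cmtm7 (right), both axes log2(FPKM + 1), 1 point a library coloured by group. On the left r was 0.901 over 18 libraries, with DSS and KO toward the upper right and COM at the lower left; on the right r was 0.893, with Control 3 at the lowest values.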

How the data were processed

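Whole-colon RNA was sequenced with DNBSEQ (per the labels' protocols). What the authors deposited is a single FPKM table, 18349 genes by 18 libraries, its values given to 2 decimals. The build is mm10, per the submitters' processing notes; the sources used here give no aligner, FPKM program, annotation or strand setting. Of the gene identifiers 18230 matched a symbol in RefSeq GRCm38.p6. At most 2.65% of values were identical between any 2 libraries. Testing covered the 13263 genes that reached 1 FPKM in 3 or more libraries. All 18 libraries entered 1 linear model of log2(FPKM + 1) with 5 groups. The model was fitted by limma 3.58.1 under R 4.3.3, using its variance moderation and a mean-variance trend. In 11 comparisons genes were called two-sided at a Benjamini-Hochberg adjusted p under 0.05. Fold changes of FPKM + 1 understate changes of low genes. Coding sequences (GENCODE M21) were aligned with MAFFT 7.526.

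The members and lists were chosen with earlier results of these data known. All 7 genes are named. Each pathway list contributed up to 4 genes, those called by size of change and the rest by p. Nlrp1b, Ninj1, Irf2, Stat6, Retnlb, Pycard and genes below the filter were added for their role after their values were seen. The 5 genes most like each gasdermin had a mean of at least 5 FPKM. A few genes that these rules select are not reported here. Alternatives changed the pseudocount (0.1), filter, scaling, the libraries fitted and the replicate block. Leaving out the acinar-rich, squamous-rich or low-Hox libraries was chosen after seeing the data.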

Additional observations from a re-analysis of the deposited data

Results flagged for a closer look

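In 30 sets of 4 libraries (7 genes, 1 sum and 2 ratios in WT, KO and COM), 2 single libraries lay far from the other 3 of their group, where chance marks about 1 set in 20. Gsdmc2 was 702 FPKM in KO 2, with a next value of 516 FPKM, and KO 2 was also low in distal gut Hox genes. Gsdmc2 was 265 FPKM in COM 3, with a next value of 238 FPKM, and COM 3 was rich in squamous genes. Whether these features of the libraries bear on Gsdmc2 was not tested. Both values lay on the side of their own group in the comparison of KO with WT and COM.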

How the results depend on the processing

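The number of gasdermins called in DSS against Control was 1, and 0 without a filter (2232 of all genes called), with a fit of the compared groups alone (0 of all genes), or without the acinar-rich (426) or the squamous-rich libraries (309). In WT and in COM against Control it was 1, and 0 with the compared groups alone (1016 and 15 of all genes) or without the squamous-rich libraries (751 and 63). In KO against Control it was 0, and 1 without the low-Hox libraries (566). In COM against DSS and KO against WT it was 0, and 1 and 2 with the compared groups alone (10 and 467 of all genes). In DSS-treated groups against Control it was 1, and 0 without the acinar-rich (1937) or the squamous-rich libraries (1338). Leaving out 1 library gave 0 to 2 calls in DSS or COM against Control, 1 to 2 in WT, and 0 to 1 in KO and in DSS-treated groups. Gsdmc3 in COM against Control lost its call without Control 2, COM 2, COM 3 or COM 4 (adjusted p = 0.0513 to 0.0884). In DSS-treated groups against Control the sign turned without Control 3 and without the low-Hox libraries for Gsdmc4 (-0.038 and -0.031), Gsdmd (-0.17 and -0.15), Gsdme (0.30 and 0.23) and Gsdma (-0.0062 and -0.025), and for Gsdma after quantile normalization (-0.064). Leaving out 1 library gave -0.038 to 0.82 for Gsdmc4, -0.17 to 0.19 for Gsdmd, -0.75 to 0.30 for Gsdme and -0.0062 to 0.21 for Gsdma. The cause of these changes was not tested. With the replicate number as a block, Gsdmc2 in DSS against Control was called (0.71, adjusted p = 0.0471) and Gsdmc4 was not (0.89, adjusted p = 0.0570), so their count stayed at 1. Whether the numbers pair the libraries was not tested. Deviations of same-numbered libraries of different groups were correlated at a median of 0.0132 (-0.4728 to 0.3923), and 13 of 33 pairs lay over 0.1. Among differently numbered pairs, DSS 1 and KO 3 reached 0.6304, and Control 1 and KO 2 reached -0.5229. The differences of Gsdmc2, Gsdmc3 and Gsdmc4 given for WT, KO and COM against DSS and between strains kept their sign in every alternative.

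Counts over all genes varied by more than 1.5 times: DSS against Control 2243 (0 to 3662), WT 3058 (751 to 4624), KO 682 (2 to 1591), COM 1008 (15 to 2302), DSS-treated 2782 (1338 to 4207), WT against DSS 0 (0 to 27), KO against DSS 22 (0 to 39), COM against DSS 2 (0 to 35), KO against WT 110 (0 to 467), COM against KO 4 (0 to 4) and COM against WT 1 (0 to 24). In DSS-treated groups the calls split into 1833 higher and 949 lower. Quantile normalization gave 1204 higher and 1391 lower, and rescaling to TPM 2420 and 644. The depth of the libraries is unknown, so Gsdmc and Gsdma, near 1 FPKM, have unknown counting error.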

Other observations

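The genes nearest in pattern to the other gasdermins are given as values. For Gsdmd they were S100a16 (r = 0.881 over 18 libraries), Rhpn2 (0.876), Slc6a8 (0.870), Pafah1b3 (0.870) and Selenoi (0.863), at 0.729 to 0.783 without Control 3. For Gsdme they included the histone deacetylase gene Hdac1 (0.957), Smim14 (0.953), Ang (0.952) and Etv5 (0.951), at 0.891 to 0.924 without Control 3. For Gsdma they were Idh3g (0.785), Dph6 (0.784), Qtrt1 (0.760), Tmco1 (0.745) and Thtpa (0.736).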
